A study of Mus musculus with 12 samples.

Results

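The enzymes that write, maintain and oxidise DNA methylation were followed in mouse epididymal white adipose tissue (eWAT), and they comprised the DNA methyltransferases Dnmt1, Dnmt3a and Dnmt3b, the maintenance cofactor Uhrf1, and the dioxygenases Tet1, Tet2 and Tet3. These 7 of the 23474 genes in the expression table were taken by name, by matching their mouse Ensembl identifiers to the gene symbols. The family was selected on the FPKM of Dnmt3a in TJ and HFD, since it was already known to be among the genes that fell most between these groups, so that contrast is described for the 7 genes without a test.

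Male C57BL/6J mice were assigned to a diet at 5 weeks of age, stayed on it for 12 weeks, and gave tissue at 17 weeks. The ND group received the normal diet and the HFD group the high-fat diet. The GT group received the high-fat diet with 0.25% (w/w) of an ethanol extract of green tea, and the TJ group received the high-fat diet with 3% (w/w) of Taeeumjowitang, a Korean herbal medicine. Each group of 10 mice is represented by 3 RNA-seq libraries, numbered 1 to 3, with tissue taken from 3 mice each in HFD and TJ. The labels do not tie libraries to mice, and for ND and GT the sources used here do not say whether a library was 1 mouse or a pool, so the p-values measure only the spread between these libraries. Levels are FPKM, fragments scaled to the depth of the library and the length of the transcript, so that levels of different genes can be set side by side. Folds and tests are on the scale of log2(FPKM + 1), a scale that understates changes of low genes, from the linear model of limma. Each fit took in all genes that averaged 1 FPKM or more in the 6 libraries compared. A gene was called where its Benjamini-Hochberg adjusted p was under 0.05 and its change at least 1.5-fold.

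DNA methylation is the addition of a methyl group to cytosine, mostly where a guanine follows it (a CpG site). DNMT3A and DNMT3B place the mark on unmethylated DNA, while DNMT1, guided by UHRF1 to newly copied strands, restores it after replication. The TET enzymes oxidise the methyl group, a step towards its removal, and need oxygen, iron and 2-oxoglutarate. In obese fat the enlarged macrophage population sits beside adipocytes and progenitors, and all of these cells contribute RNA to a bulk library. In such a bulk sample, fewer cells of a type and less RNA per cell cannot be told apart.

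One library of the normal diet group stood apart from all the others. ND replicate 1 held a summed 99330 FPKM over 14 germ cell markers and 16880 FPKM over 10 epididymis markers, against 36.9 to 3098 FPKM and 0.231 to 1674 FPKM in the other 11 libraries, and its 11 adipocyte markers summed to 4680 FPKM against 20310 to 63500 FPKM elsewhere. Adiponectin (Adipoq), which defines adipocytes, was above 0 in every library, as was the macrophage gene Adgre1. The largest of the lower germ cell sums were 3098 FPKM in ND replicate 3 and 2145 FPKM in HFD replicate 1, and the largest of the lower epididymis sums was 1674 FPKM in HFD replicate 2. Tests against the ND group of the members that passed the filter are therefore given with and without ND replicate 1. Approximate depth, read from the steps between low values, was about 9800000 fragments in ND replicate 1 and 14000000 to 19000000 fragments in the other libraries.

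Dnmt3a is the member with the largest range and is described first by its locus. The gene (ENSMUSG00000020661) lies on chromosome 12 at 3806007 to 3914443 of GRCm38, on the plus strand, with 18 annotated transcripts. RefSeq gives it several starts, and the 250 bases before 2 of them are printed here as the genome has them (GRCm38.p6, plus strand), with every CpG, the dinucleotide that DNMT3A itself methylates, in capitals. The upstream one, at chr12:3806730-3806979, held 38 CpG, more than or as many as 98.4% of the 32851 windows of that length in the RefSeq table. The internal one, at chr12:3891494-3891743, held 15 CpG, and the median window held 6. FPKM per gene sums over the transcripts, so the use of these starts was not measured.
Dnmt3a upstream start: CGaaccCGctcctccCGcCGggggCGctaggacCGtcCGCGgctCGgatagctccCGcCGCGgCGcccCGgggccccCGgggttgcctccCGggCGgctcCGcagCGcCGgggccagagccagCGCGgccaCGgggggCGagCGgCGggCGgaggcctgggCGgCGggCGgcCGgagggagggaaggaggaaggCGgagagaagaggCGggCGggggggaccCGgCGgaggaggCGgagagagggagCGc
Dnmt3a internal start: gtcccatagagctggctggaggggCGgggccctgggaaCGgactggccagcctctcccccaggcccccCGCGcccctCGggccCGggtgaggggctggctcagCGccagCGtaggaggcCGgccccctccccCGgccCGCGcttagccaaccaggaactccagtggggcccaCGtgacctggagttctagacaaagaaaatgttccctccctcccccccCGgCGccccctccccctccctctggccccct

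Uhrf1 (ENSMUSG00000001228, chromosome 17 at 56303321 to 56323486, plus strand) and Dnmt1 (ENSMUSG00000004099, chromosome 9 at 20907209 to 20959888, minus strand) are genes of dividing cells, and their windows are shown for a motif that proliferation genes often carry, the E2F-type letters TTTNNCGC. The window before a second Uhrf1 start, at chr17:56304063-56304312, is printed here with its 1 match in capitals. It also held 30 CpG.
Uhrf1 second start: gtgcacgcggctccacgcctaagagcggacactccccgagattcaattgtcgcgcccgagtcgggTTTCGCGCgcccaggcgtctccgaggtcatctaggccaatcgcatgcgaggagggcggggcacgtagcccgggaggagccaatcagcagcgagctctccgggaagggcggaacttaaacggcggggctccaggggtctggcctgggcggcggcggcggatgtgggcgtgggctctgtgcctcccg
A further Uhrf1 window held 1 match, TTTCTCGC, and a Dnmt1 window at chr9:20952624-20952873 held 2 overlapping matches on the other strand, GCGCGAAA and GCGAAAAA. Over both strands, 4.28% of all windows held the letters, and 3 of the 12 windows of the 7 genes did, all of Dnmt1 or Uhrf1. A match describes these letters and no more. The window before Tet2, at chr3:133544391-133544640, was the richest of the 12, with 51 CpG.

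Dnmt1, the maintenance methyltransferase, was higher in the HFD libraries than in all others. It stood at 6.12, 4.25 and 6.22 FPKM in ND replicates 1 to 3, and at 13.3, 12.7 and 15.2 FPKM in the HFD replicates. In the GT replicates it was 10.1, 7.67 and 5.72 FPKM, and in the TJ replicates 5.55, 4.71 and 6.88 FPKM. The HFD libraries did not overlap with any other group, whereas the ND, GT and TJ ranges overlapped one another. The group means were 5.53 ± 1.11 FPKM in ND, 13.7 ± 1.36 in HFD, 7.83 ± 2.20 in GT and 5.71 ± 1.09 in TJ (SD, n = 3 each).

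Uhrf1 is the protein that recognises hemimethylated DNA and brings DNMT1 to it. It reached 23.0 FPKM in ND replicate 1 and 0.906 and 5.95 FPKM in the other ND libraries. The HFD replicates held 9.35, 6.21 and 7.55 FPKM, the GT replicates 5.52, 3.21 and 2.04 FPKM, and the TJ replicates 2.67, 1.07 and 2.52 FPKM. The highest value of the gene thus came from the library with the germ cell transcripts, whose part in it was not tested. Apart from it the HFD libraries were the highest, without overlap with GT or TJ. The ND mean was 9.94 ± 11.6 FPKM (SD, n = 3) and 3.43 ± 3.57 FPKM without replicate 1 (n = 2).

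Dnmt3a, the main de novo methyltransferase of somatic tissue, had the largest range in FPKM of the 7 genes. ND replicates 1 to 3 held 7.02, 5.88 and 10.0 FPKM, and HFD replicates 67.0, 79.3 and 106 FPKM. The GT replicates held 45.2, 32.7 and 17.2 FPKM and the TJ replicates 19.1, 3.76 and 16.1 FPKM. All HFD libraries lay above all others, all GT libraries lay above all ND libraries, and the TJ range overlapped both GT and ND. Means were 7.65 ± 2.16 FPKM in ND, 84.2 ± 20.2 in HFD, 31.7 ± 14.0 in GT and 13 ± 8.13 in TJ (SD, n = 3 each). Among 23474 genes ordered from the highest mean FPKM, Dnmt3a was number 8928 in ND, 962 in HFD, 2677 in GT and 5625 in TJ. A non-coding gene, Dnmt3aos, overlaps it on the opposite strand, and since no strand setting is stated for the counting, reads of the pair cannot be told apart.

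Dnmt3b, the other de novo enzyme (ENSMUSG00000027478, chromosome 2 at 153649450 to 153687730), stayed near 1 FPKM. It ran from 1.01 (replicate 1) to 1.55 FPKM in ND, 0.643 to 1.57 in HFD, 0.580 to 0.990 in GT and 0.761 to 1.5 in TJ. The GT libraries lay below all ND libraries, and HFD and TJ overlapped with every other group. An antisense gene, Dnmt3bos, overlaps Dnmt3b as well. Dnmt3b passed the filter on low values in HFD against ND and TJ against HFD, and was below it in the comparisons with GT. There, with no filter, the log2 differences were -0.17 against HFD, -0.33 against ND and 0.24 for TJ against GT, with limma adjusted p of 0.729, 0.578 and 0.512, and the exact two-sided permutation test of GT against ND gave p = 0.1, the smallest possible.

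Among the TET enzymes, Tet3 had the highest level in 11 of the 12 libraries and Tet1 hardly any. Tet3 (ENSMUSG00000034832, chromosome 6 at 83362373 to 83459084) stood at 1.65, 5.66 and 7.74 FPKM in ND and at 10.9, 13.5 and 12.5 FPKM in HFD. It was 11.7, 9.47 and 7.38 FPKM in GT and 8.63, 3.64 and 8.67 FPKM in TJ. The HFD libraries lay above all ND and TJ libraries and overlapped with GT. B230319C09Rik, a gene on the opposite strand within the Tet3 locus, ran from 0.115 to 1.98 FPKM, so the same limit on strand holds.

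Tet2 (ENSMUSG00000040943, chromosome 3 at 133463679 to 133545139), an enzyme much studied in blood cells, varied less. It was 1.88, 3.48 and 4.41 FPKM in ND, 3.56, 5.37 and 3.96 in HFD, 4.31, 3.17 and 2.70 in GT, and 3.77, 2.08 and 4.24 in TJ, with every pair of groups overlapping. Tet1 (ENSMUSG00000047146, chromosome 10 at 62804570 to 62908996), best known from embryonic stem and germ cells, ran from 0.0589 to 0.382 FPKM over all 12 libraries, with the highest value in ND replicate 1. It was below the filter in every comparison. With no filter, limma gave adjusted p of 0.161 to 0.963 over the 4 comparisons other than TJ against HFD, and the exact two-sided permutation test of GT against ND gave p = 0.1, with GT the lower.

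**Figure D1:**
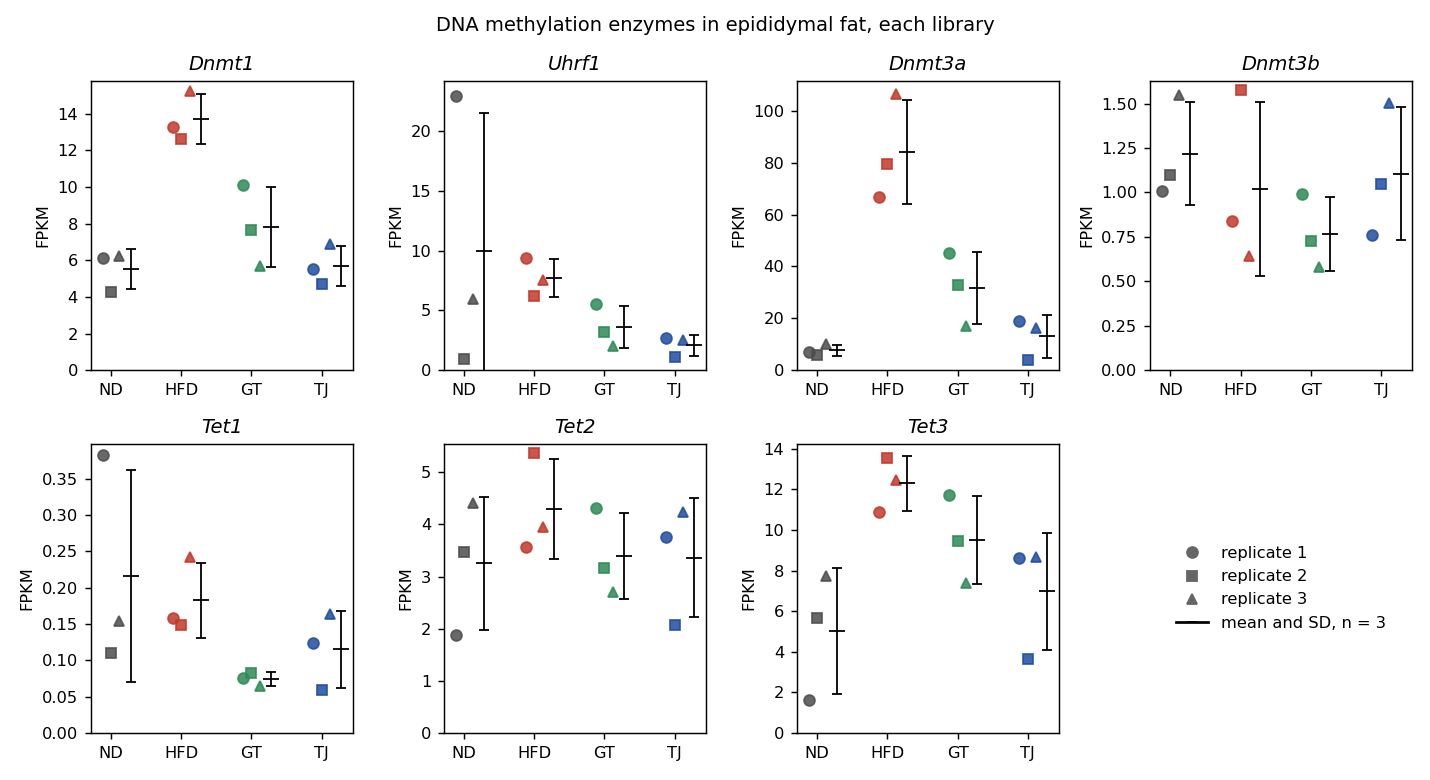
FPKM of each of the 7 genes (vertical axes, linear from 0, so that the lower SD limit of Uhrf1 in ND is cut off) in the 12 libraries by group, with 1 point a library and the mean and SD of each group (n = 3) beside its points. Dnmt3a and Dnmt1 were highest in the 3 HFD libraries, at 67.0 to 106 and 12.7 to 15.2 FPKM, and Uhrf1 has its highest point, 23.0 FPKM, in ND replicate 1.

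The make-up of the methyltransferase pool followed Dnmt3a. Its share of the summed FPKM of Dnmt1, Dnmt3a and Dnmt3b was 49.6, 52.3 and 56.4% in the ND replicates and 82.6, 84.8 and 87.0% in the HFD replicates. The share was 80.3, 79.6 and 73.2% in GT and 75.2, 39.5 and 65.8% in TJ, where replicate 2 lay below all ND libraries. Tet3 made up 71.0 to 74.8% of summed TET FPKM in HFD, 72.7 to 74.4% in GT, 63.0 to 68.9% in TJ and 42.1 to 62.9% in ND, with ND replicate 1 the lowest. Summed methyltransferase FPKM was 4.91 to 7.33 times summed TET FPKM in HFD, 2.31 to 3.50 times in GT, 1.65 to 2.03 times in TJ and 1.21 to 3.62 times in ND, and the ND value of 3.62 came from replicate 1. These are transcript levels, and neither protein nor methylation was measured.

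**Figure D2:**
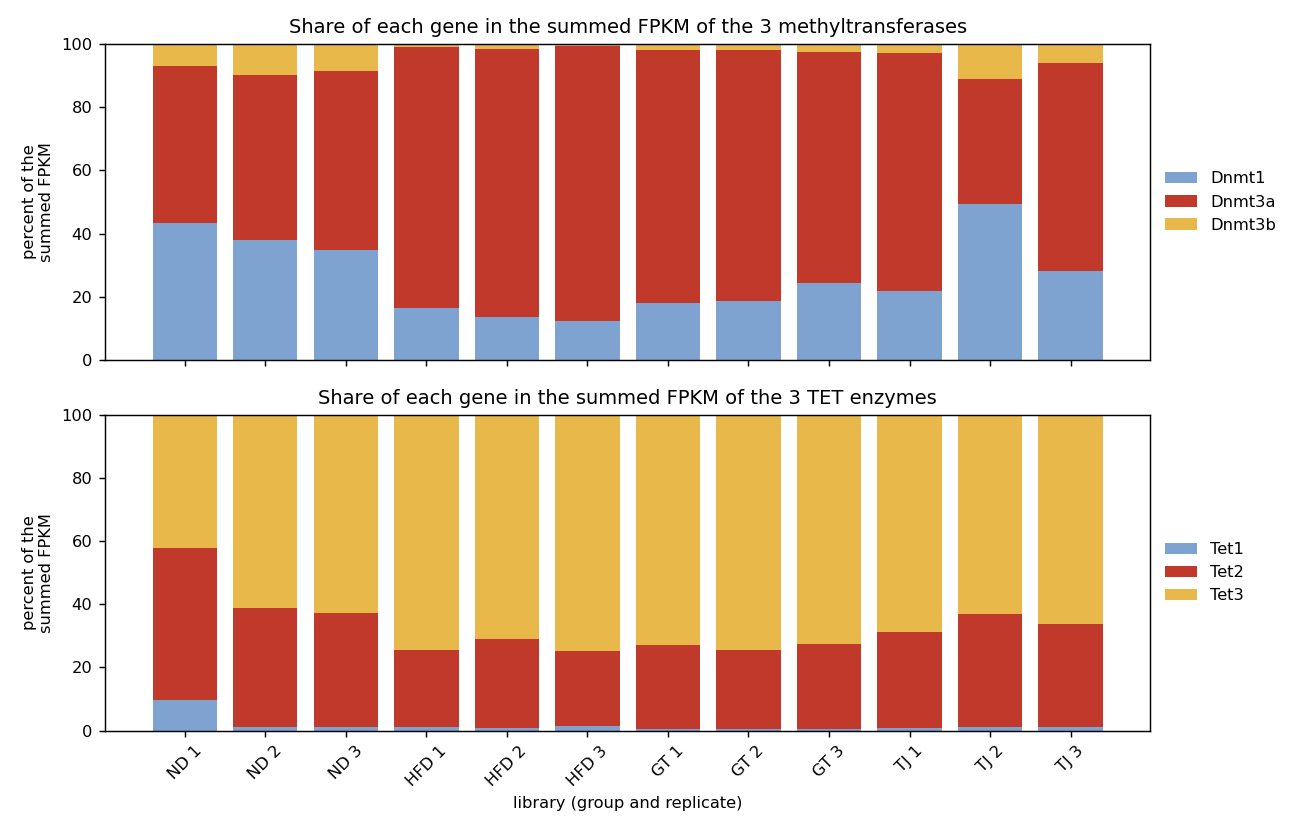
Share of each enzyme in the summed FPKM of the 3 methyltransferases and of the 3 TET genes (percent, stacked bars from 0) in each of the 12 libraries. Dnmt3a takes 82.6 to 87.0% of the methyltransferase sum in HFD and 49.6 to 56.4% in ND.

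The comparison of HFD with ND asked what the high-fat diet did on its own. Dnmt3a was 11.01 times its ND mean in HFD, a log2 difference of 3.30 ± 0.33 (SE) with a limma adjusted p of 0.0186, and was number 112 of 14430 tested genes by the size of the rise. It was the only 1 of 6 tested members called, against 1.77% of all genes called and 1.73% called higher. With the replicate number as a block, a pairing that the library deviations bore out only in part, the difference was the same 3.30. The adjusted p by limma was then 0.0841, so the call was lost, as were the calls of all 255 genes. The call was also lost when ND replicate 2 or 3 or any 1 HFD library was left out, with log2 differences of 3.12 to 3.50 and limma adjusted p up to 0.232 over all 6 omissions. The HFD libraries also entered the contrast for which Dnmt3a was known, so its rise is not independent of that choice.

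Dnmt1 was 2.48 times as high in HFD, a log2 difference of 1.18 ± 0.29 (SE) with a limma adjusted p of 0.143, and Tet3 was 2.45 times as high, at 1.31 ± 0.50 with an adjusted p of 0.395. Neither passed the test, although their groups, like those of Dnmt3a, did not overlap, with HFD above ND as in 20.5% of all tested genes. An unadjusted p under 0.05 was found for 3 of the 6 members and for 11.6% of all genes. Uhrf1 differed by 0.34 with a 95% interval of -1.88 to 2.55, Tet2 by 0.35 with -0.55 to 1.25, and Dnmt3b by -0.16 with -1.01 to 0.70.

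Without ND replicate 1, Dnmt1, Dnmt3a and Tet3 rose in HFD. The log2 differences were 1.25 for Dnmt1, 3.26 for Dnmt3a and 0.80 for Tet3, with limma adjusted p of 0.0141, 0.00269 and 0.0452. These were 3 of 6 tested members, against 15.4% of all genes called and 11% called higher in that fit. With the replicate block and without the libraries numbered 1 in both groups, only Dnmt3a of these was called, where 582 of all 13661 tested genes were. Dnmt1 and Tet3, at 1.27 and 0.88, had limma adjusted p of 0.0717 and 0.165 in that fit. Tet2 without ND replicate 1 differed by 0.09 with an interval of -0.50 to 0.68, and Dnmt3b by -0.22 with -1.18 to 0.74. Uhrf1 without ND replicate 1 differed by 1.24, with an interval of -0.18 to 2.67 and a limma adjusted p of 0.213.

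**Figure D3:**
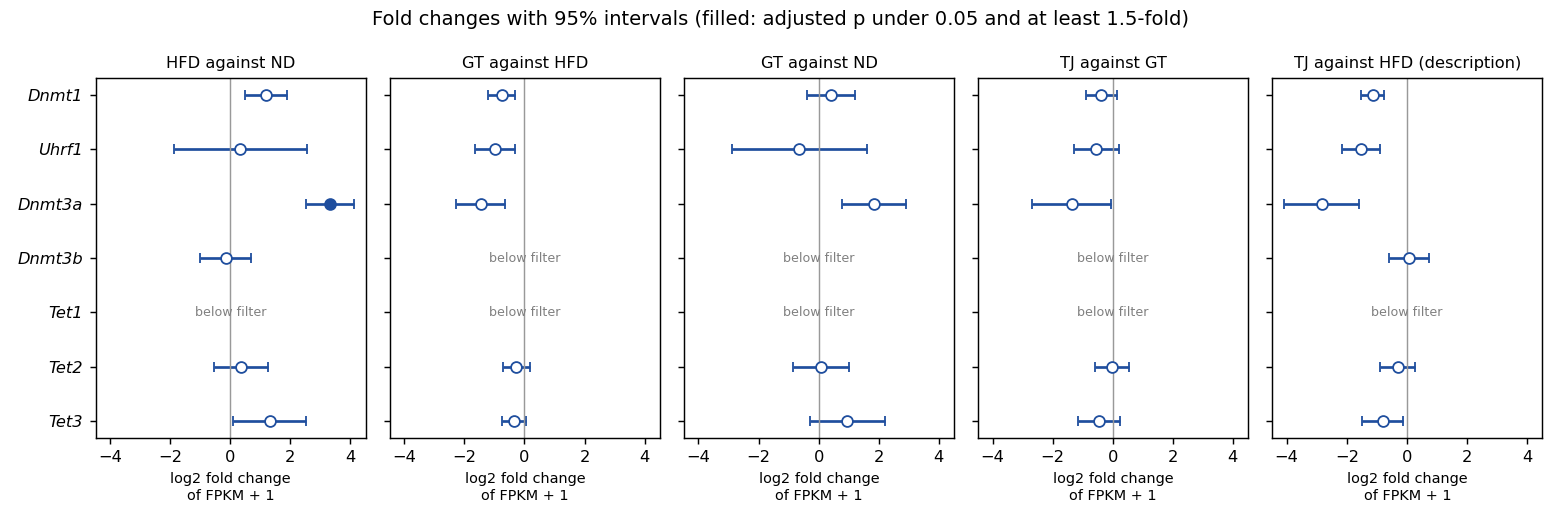
Log2 difference of FPKM + 1 (horizontal axis) for each tested member in the 5 comparisons, with 95% intervals from limma and all 6 libraries. A filled point marks a call, no call is marked in TJ against HFD, which is a description, and Dnmt3a in HFD against ND, at 3.30, is the only filled point.

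The comparison of GT with HFD asked what green tea extract did on the same high-fat diet. Dnmt1, Uhrf1 and Dnmt3a were at 0.571, 0.466 and 0.376 times their HFD means, and in all 3 genes every GT library lay below every HFD library, as did 24.4% of all tested genes. The log2 differences were -0.76 ± 0.19 (SE), -0.98 ± 0.28 and -1.46 ± 0.34, with limma adjusted p of 0.0634, 0.0863 and 0.0593. None of the 5 tested members was called by limma, against 3.63% of all genes, and 3 had an unadjusted p under 0.05, as had 29.3% of all genes. Without GT replicate 1, the GT library with the highest level of each, these 3 genes fell by 0.94, 1.27 and 1.76 and were called, against 5.7% of all genes called lower in that fit. The HFD libraries entered the choice of Dnmt3a, so its adjusted p here is not independent of that choice either. Tet2 differed by -0.27 with an interval of -0.73 to 0.18, and Tet3 by -0.35 with -0.75 to 0.04.

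The comparison of GT with ND used no library of the contrast for which Dnmt3a was known. Dnmt3a was 4.14 times its ND mean in GT, a log2 difference of 1.85 ± 0.43 (SE) with an interval of 0.79 to 2.90. Its limma p was 0.00501 unadjusted and 0.407 adjusted over 14249 genes, and the exact two-sided permutation test over the libraries, taken as unpaired, gave p = 0.1, the smallest that 3 against 3 allows. With the replicate block the interval was 0.50 to 3.19 and the limma adjusted p was 0.483. All 3 GT libraries were above all ND libraries, as were those of 14.6% of genes. No gene of any kind was called by limma here (0% of all genes), and 1 of the 5 tested members and 10.6% of all genes had an unadjusted p under 0.05. Without ND replicate 1 the difference of Dnmt3a was 1.81, with a limma adjusted p of 0.0978, and 0 of 5 members and 0.0451% of all genes were called in that fit, with 1 member at an unadjusted p under 0.05. Dnmt1 differed by 0.42 with an interval of -0.39 to 1.23, Tet3 by 0.95 with -0.29 to 2.20 and Tet2 by 0.08 with -0.84 to 1.00. Uhrf1 differed by -0.64 with all libraries and by 0.26 without ND replicate 1, a change of sign. Without that library Tet3 differed by 0.44 with an interval of -0.13 to 1.02, Dnmt1 by 0.49 with -0.18 to 1.16 and Tet2 by -0.18 with -0.77 to 0.41, and none of these members passed the limma test in either fit.

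In TJ against HFD, the contrast that made Dnmt3a known, the values are given as a description only. Dnmt3a in TJ was 0.154 times its HFD mean, a log2 difference of -2.83 ± 0.53 (SE), and stood 14th from the lowest of 12807 tested genes. Dnmt1 differed by -1.14 ± 0.16, Uhrf1 by -1.53 ± 0.26 and Tet3 by -0.81 ± 0.29, and these 4 genes had no overlap between the groups, with TJ the lower as in 31.4% of all genes. Tet2 differed by -0.30 ± 0.25 and Dnmt3b by 0.07 ± 0.28. Of 6 members, 3 met the call threshold, all lower, where 18.5% of all genes met it and 11.1% were lower. That threshold used the values that chose the family, so nothing is read from the count. TJ replicate 2, at 3.76 FPKM, was the lowest of all 12 libraries for Dnmt3a, and without it the difference was -2.17.

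In TJ against GT, both on the high-fat diet with a supplement, all 5 tested members overlapped between the groups, whereas 34.4% of all tested genes did not. Dnmt3a was 0.410 times its GT mean, a log2 difference of -1.37 ± 0.56 (SE) with an interval of -2.68 to -0.06 and a limma adjusted p of 0.190. Without TJ replicate 2 it was -0.72, and the TJ libraries, too, entered the choice of Dnmt3a, so this p is not independent of it. Limma called 0 of the 5 tested members, against 0.148% of all genes, and 1 member and 24.6% of all genes had an unadjusted p under 0.05. Dnmt1 differed by -0.38 with an interval of -0.88 to 0.13, Uhrf1 by -0.55 with -1.30 to 0.21, Tet2 by -0.03 with -0.59 to 0.53 and Tet3 by -0.46 with -1.17 to 0.26. The 5 comparisons share the libraries of the 4 groups, so their values are not separate pieces of evidence.

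Macrophage and proliferation markers were highest in HFD, as Dnmt3a and Dnmt1 were, apart from the proliferation genes of ND replicate 1. The summed FPKM of 15 macrophage markers was 201 in ND replicate 1 and 773 and 629 in the other ND libraries, 4600 to 6486 in HFD, 1742 to 4138 in GT and 1140 to 3082 in TJ, with none of the 15 at 0 in any library. In HFD against ND 8 of the 15 were called higher, where 1.73% of all genes were, and 14 without ND replicate 1, where 11% were. With the replicate block limma called 0 of them, as of all genes. With the block and without the libraries numbered 1 it called 12 higher, where 497 of all 13661 tested genes were called higher. In GT against HFD limma called 0 of the 15, where 3.63% of all genes were called, with 14 of the differences below 0 and a median of -0.98 on the log2 scale. In TJ against HFD 11 were called lower, where 11.1% of all genes were. Dnmt3a per 1000 FPKM of this sum was 34.98 in ND replicate 1 and 7.60 and 16.0 in the other ND libraries, 10.9 to 17.3 in HFD, 9.29 to 10.9 in GT and 3.30 to 6.27 in TJ. On that scale 2 HFD libraries lay above both ND libraries other than replicate 1 and the third between them, the GT libraries lay between the same 2 ND libraries and, among the HFD libraries, overlapped only with the lowest, and the TJ libraries lay below all others. Per 1000 FPKM of the 8 progenitor markers below, Dnmt3a was 101.6 in ND replicate 1 and 5.07 and 9.49 in the other ND libraries. It was 30.05 to 48.8 in HFD, 14.9 to 28.4 in GT and 4.80 to 18.2 in TJ. Per 1000 FPKM of the 15 proliferation genes below, it was 38.6 in ND replicate 1 and 202 and 175 in the other ND libraries. The other groups held 384.7 to 664.5 in HFD, 347.9 to 412.4 in GT and 90.8 to 318 in TJ. The part of any of these markers in the Dnmt3a levels was not tested.

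The 15 proliferation genes, made by dividing cells of any type, summed to 182 FPKM in ND replicate 1, to 29.1 and 57.3 FPKM in the other ND libraries, and to 142 to 174 FPKM in HFD. The sum was 49.4 to 110 FPKM in GT and 41.4 to 70.9 FPKM in TJ, and no gene of the list was at 0 in any library. In HFD against ND 3 were called higher, where 1.73% of all genes were, and 11 without ND replicate 1, where 11% were. With the replicate block it was 0, as for all genes, and with the block and without the libraries numbered 1 it was 3, where 497 of 13661 genes were called higher. In GT against HFD 1 was called lower, where 231 of 12766 genes were called lower, and in TJ against HFD 14 were, where 11.1% of all genes were called lower. Per 1000 FPKM of this sum, Dnmt1 was 33.7 in ND replicate 1 and 146 and 109 in the other ND libraries, 76.2 to 95.2 in HFD, 88.9 to 116 in GT and 92.4 to 114 in TJ, so that the HFD libraries lay below both ND libraries other than replicate 1 and overlapped with GT and TJ. Uhrf1 on the same scale was 127 in ND replicate 1 and 31.2 and 104 in the other ND libraries, 43.6 to 53.7 in HFD, 37.2 to 50.4 in GT and 25.8 to 44.4 in TJ. The part of proliferating cells in these levels was not tested.

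**Figure D4:**
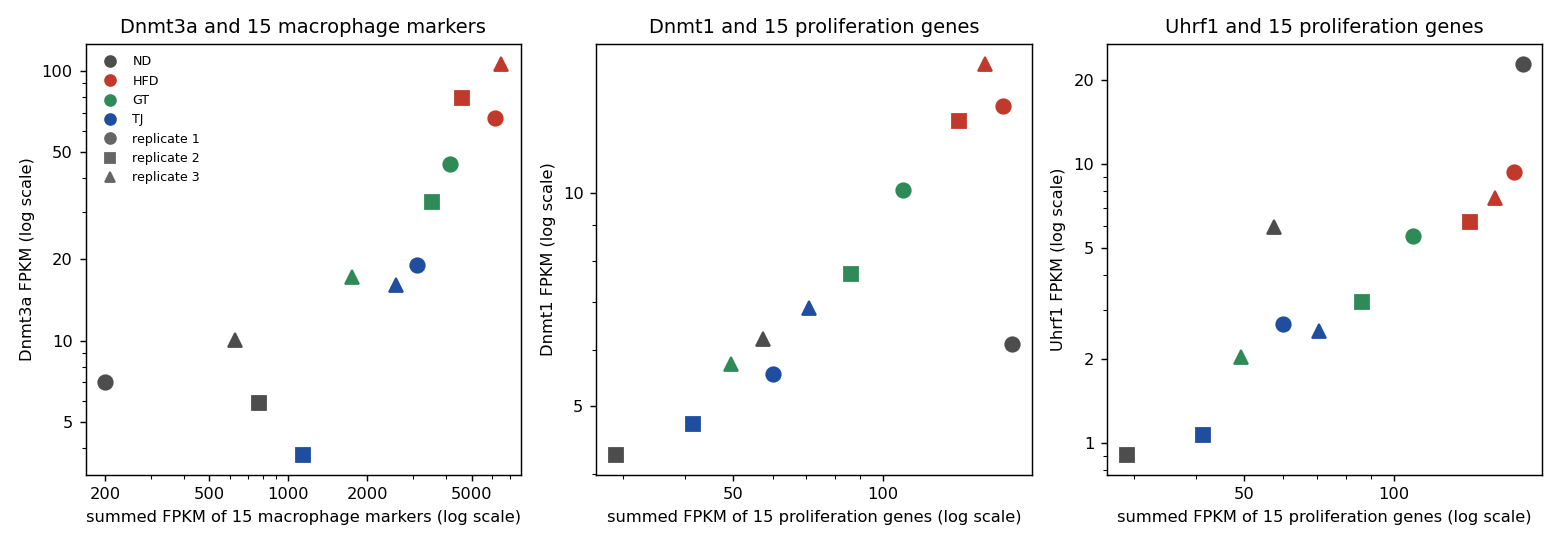
Dnmt3a against the summed FPKM of 15 macrophage markers, and Dnmt1 and Uhrf1 against that of 15 proliferation genes, with 1 point a library and log scales on all axes. HFD libraries sit at the upper right of the Dnmt3a panel, at 4600 to 6486 FPKM of macrophage markers, and at 142 to 174 FPKM of proliferation genes in the others. There ND replicate 1 lies further right, at 182 FPKM of proliferation genes, below the HFD libraries for Dnmt1 and above them for Uhrf1.

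Other cell types moved in part with the groups too. The 8 progenitor and matrix markers summed to 2014 to 2228 FPKM in HFD and 785 to 1588 FPKM in GT and TJ, with 69.1 FPKM in ND replicate 1 and 1059 and 1160 FPKM in the other ND libraries. In TJ against HFD 5 of the 8 were called lower, where 11.1% of all genes were, with a median log2 difference of -1.34. In GT against HFD 2 were called lower, where 231 of 12766 genes were. In HFD against ND 0 of the 8 were called. Without ND replicate 1 it was 5 higher, where 11% of all genes were called higher. Adipocyte markers summed to 4680 FPKM in ND replicate 1 and 37840 and 24940 FPKM in the other ND libraries, 20310 to 22010 FPKM in HFD, 27020 to 32370 FPKM in GT and 32740 to 63500 FPKM in TJ, and TJ replicate 2, with the lowest Dnmt3a, had the highest adipocyte sum. In HFD against ND limma called 0 of the 11 adipocyte markers, with a median log2 difference of 0.12. Without ND replicate 1 the median was -0.88, and 7 of the 11 were called lower in HFD and 1 higher, where 15.4% of all genes were called. With the block as well and without the libraries numbered 1 it was 2 lower and 1 higher, where 85 and 497 of 13661 genes were. In TJ against HFD 7 of the 11 were called higher and 0 lower, where 949 of all 12807 tested genes were called higher and 1417 lower. The 7 endothelial markers summed to 490 to 729 FPKM in TJ, above all other libraries, against 295 to 333 FPKM in HFD, 350 to 442 FPKM in GT, and 160 FPKM in ND replicate 1 and 343 and 366 FPKM in the other ND libraries. The 5 mesothelial markers summed to 71.9 FPKM in ND replicate 1 and 26.7 and 40.9 FPKM in the other ND libraries, and to 3.57 to 17.0 FPKM in the other groups, which overlapped. The 11 lymphocyte markers summed to 9.05 to 15.1 FPKM in TJ, above the 5.46 to 6.93 FPKM of HFD, and to 4.74 to 9.35 FPKM in GT and 4.77 to 21.0 FPKM in ND, highest in replicate 1, with the B cell marker Ms4a1 listed at 0 in all 12 libraries. Their part in the levels of the 7 genes was not tested either.

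The 5 genes most like each member were found by Pearson correlation of log2(FPKM + 1) over the 12 libraries among 13935 genes, as a description of libraries that share their diet groups. For Dnmt3a these were Gas7 (r = 0.989), Slc43a2 (0.987), Rnf149 (0.987), Trerf1 (0.987) and Gcnt1 (0.986). Gas7, first described in growth-arrested cells, had 8.89, 9.65 and 12.3 FPKM in ND, 51.6, 54.0 and 62.0 in HFD, 32.6, 26.9 and 15.04 in GT and 18.1, 7.73 and 14.2 in TJ, the same order of groups as Dnmt3a. Without ND replicate 1 none of the 5 remained, and the list, seen only in that alternative, was led by Taok3 (r = 0.995) and Galc.

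For Dnmt1 the list was led by Cyfip2 (r = 0.986) and Mcm2 (0.979), a subunit of the replicative helicase, followed by Slc25a13, Perm1 and Hmmr. For Uhrf1 it was Cenpe (0.987), Ccnb1 (0.983), Nuf2, Kif15 and Cdca5, of which Cenpe and Nuf2 act at the kinetochore and Ccnb1 is the mitotic cyclin B1. For Tet3 it was Nhlrc3 (0.993), Stard5 (0.990), Itprid2, Eaf1 and Prkx, for Tet2 Atad5 (0.935), Ogt (0.932), the enzyme that adds N-acetylglucosamine to proteins, Rbms1, Setdb1 and Tra2b, for Dnmt3b Cspp1 (0.874), Hoxb4, 5730405O15Rik, 4933407K13Rik and Ankrd24, and for Tet1, at its low level, Atxn7l1 (0.937), Nup160, 1810013L24Rik, Fabp3 and Samd8. Without ND replicate 1, 0 of the 5 genes remained for Uhrf1 and for Tet2, 1 for Dnmt1 and Tet1, 2 for Dnmt3b and 3 for Tet3, so these lists depend on that library. Among the members themselves, Dnmt1 and Dnmt3a had r = 0.940 over the 12 libraries, and Dnmt1 and Uhrf1 had r = 0.556, or 0.889 without ND replicate 1.

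The wider pathway was read from 63 further genes in 6 lists. These were 3 relatives of the enzymes, 8 proteins that read methylated DNA, 8 partners of maintenance methylation, 13 genes of active demethylation and base repair, 20 genes of the methyl donor cycle and 11 genes that set the supply of 2-oxoglutarate. In HFD against ND, 1 of 60 tested was called higher and 0 lower, where 1.73% of all genes were called higher. That gene was Dppa3, which in the early embryo shields DNA from UHRF1 and TET3, and which read 0.136, 0.118 and 0.115 FPKM in ND and 5.46, 3.90 and 4.34 FPKM in HFD, without overlap. Its log2 difference was 2.3 ± 0.31 (SE) with a limma adjusted p of 0.0303, and of 0.174 with the replicate block, so that the call was lost. With ND near 0, Dppa3 passed the filter on low values only through the HFD libraries. Dppa3 was 3.61, 1.30 and 0.821 FPKM in GT and 2.34, 0.258 and 1.67 FPKM in TJ, all above ND and below HFD.

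Without ND replicate 1, 8 of 59 pathway genes were called higher in HFD than in ND and 4 lower, 20.3% against 15.4% of all genes. With the replicate block and without the libraries numbered 1, 1 of 59 was called, where 582 of all 13661 tested genes were. This was Pcna, at 1.46 with a limma adjusted p of 0.0343. In the fit without ND replicate 1 alone, Pcna, the sliding clamp of replication that also recruits DNMT1, rose by 1.45 on the log2 scale (limma adjusted p = 0.00485), from 30.7 and 34.1 FPKM to 79.2 to 104 FPKM. Idh1, the cytosolic enzyme that makes 2-oxoglutarate, rose by 1.24, whereas Idh2, the mitochondrial one, fell by 0.63, from 83.2 and 91.7 FPKM in ND to 52.4 to 58.8 FPKM in HFD. Uhrf2, the relative of Uhrf1, was at 21.2 and 21.5 FPKM in these ND libraries and at 30.9 to 37.0 FPKM in HFD. Pcna, Idh1 and Uhrf2 were picked after their values were seen. None of the 8 readers was called.

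In TJ against HFD 12 of 59 tested pathway genes were called, 5 higher and 7 lower, or 20.3% against 18.5% of all genes. The balance turned with the scaling, to 6 higher and 4 lower with median-of-ratios scaling and 5 higher and 2 lower with quantile normalization. Among the maintenance partners the median log2 difference was -0.79, against -0.14 over all genes, with 3 of 8 called lower and 1 called higher, where 11.1% of all genes were called lower. Hells, a chromatin remodeller needed for methylation of repeats, fell from 2.13 to 2.81 FPKM in HFD to 0.248 to 1.04 FPKM in TJ, a log2 difference of -1.05 ± 0.26 (SE), and passed the filter only through HFD. Pcna fell by 1.10 to 50.6, 29.9 and 47.3 FPKM. Dppa3 fell by 1.30 (limma adjusted p = 0.0478), and Dmap1, a DNMT1-binding protein, rose by 0.71.

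Of the repair genes, the DNA ligase gene Lig3 fell by 0.81 and Parp1, the sensor of DNA breaks, by 0.66. In the methyl donor cycle, Mtr, which remakes methionine, fell by 0.84 and Ahcy, which clears S-adenosylhomocysteine, by 0.75. Nnmt and Pemt, which spend methyl groups on nicotinamide and on phospholipid, rose by 0.61 and 0.60. In the 2-oxoglutarate list Idh2 rose by 0.81 to 91.8, 125 and 84.4 FPKM and Sdhc, a subunit of succinate dehydrogenase, by 0.65, and the list median was 0.33. None of the 3 relatives and none of the 8 readers was called. These 12 calls rest on limma adjusted p of 0.0277 to 0.0478, and leaving out any 1 HFD library or TJ replicate 1 left no gene of any kind called.

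Limma called 0 of 59, 60 and 59 tested pathway genes in GT against HFD, GT against ND and TJ against GT, where 3.63%, 0% and 0.148% of all genes were called. Of the pathway genes 16, 5 and 13 had an unadjusted p under 0.05, as had 29.3%, 10.6% and 24.6% of all genes. The list medians in GT against HFD were -0.46 for the relatives, -0.37 for the maintenance partners, -0.22 for the repair genes, -0.12 for the donor cycle, -0.09 for the readers and 0.18 for the 2-oxoglutarate list, beside -0.12 over all genes. Gnmt, a glycine methyltransferase typical of liver, was listed at 0 in all 12 libraries, and Mat1a, the liver form of the S-adenosylmethionine synthetase, did not exceed 0.447 FPKM. Both were picked after their values were seen.

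**Figure D5:**
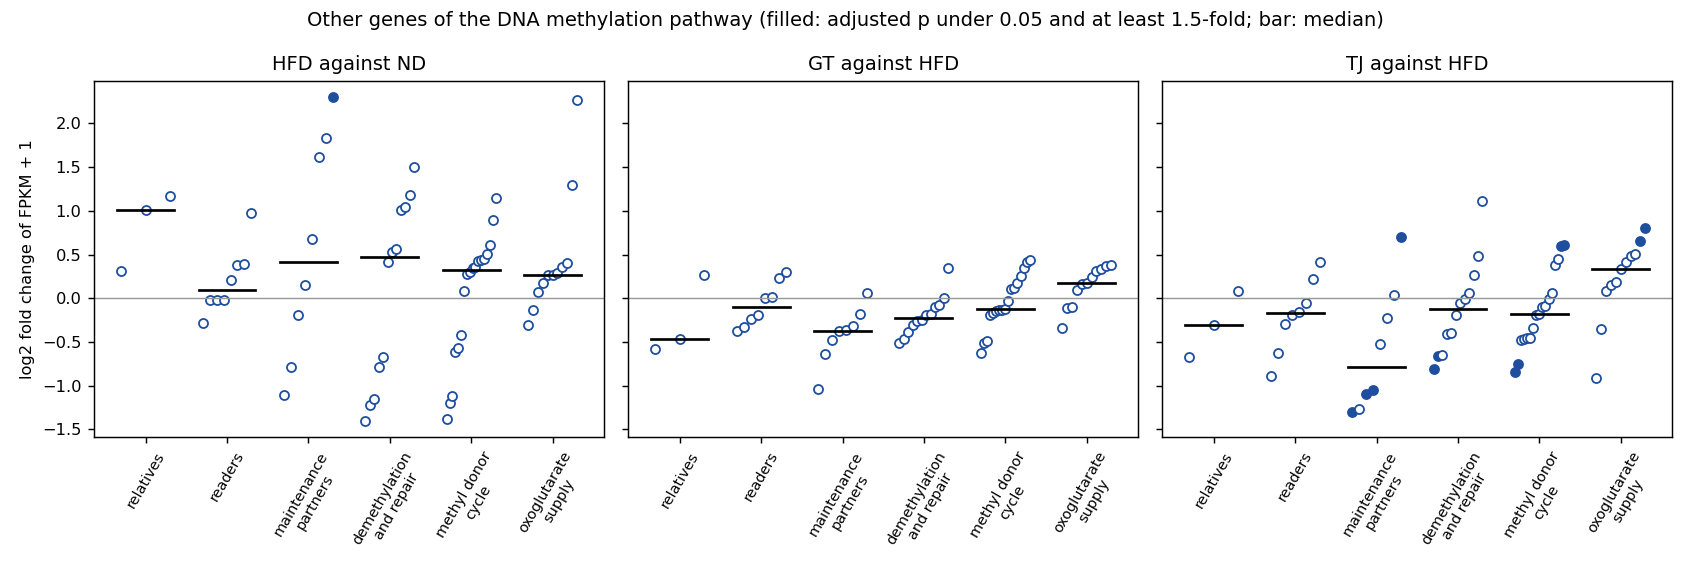
Log2 difference of FPKM + 1 for the tested genes of the 6 pathway lists (points, 1 a gene) with a bar at each list's median, in HFD against ND, GT against HFD and TJ against HFD. Filled points are called genes. In TJ against HFD the maintenance partners have a median of -0.79 and the 2-oxoglutarate list one of 0.33.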

How the data were processed

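RNA-seq of eWAT was measured in 12 libraries, 3 each of ND, HFD, GT and TJ. The authors deposited FPKM values per gene, named by mouse Ensembl identifiers. TruSeq libraries from TRIZOL-extracted RNA were sequenced, and the submitters' processing notes name CASAVA 1.8.2, STAR 2.4.0 and Cufflinks 2.1.1. The study's methods name a human reference genome, whereas the identifiers are of the mouse. FPKM gives no counts, so a count test was not used, and the study's own test on counts could not be repeated.

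Symbols matched 22671 of 23474 identifiers. Each comparison of 6 libraries was fitted with limma 3.58.1 in R 4.3.3, with a trended variance, to log2(FPKM + 1) of genes averaging 1 FPKM or more, with Benjamini-Hochberg adjustment over all tested genes. The fit was tested on simulated data. Python 3.11.15 and scipy 1.17.1 gave the exact permutation test, which took the libraries as unpaired, and matplotlib 3.10.9 the figures. Depth was approximated from the steps of low FPKM values in 2315 genes that have 1 transcript, 1500 bases or longer. Coordinates are of GRCm38 (GENCODE M21), and sequences are from RefSeq (GRCm38.p6), where 7 of 7 members matched.

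The members and all gene lists, markers included, were chosen with earlier results of these data known. The genes named were the 7 members, the called genes of each pathway list (at most 3 in each direction) and the 5 genes most like each member over 12 libraries, and the other genes named, single cell type markers included, were picked after their values were seen. Groups share replicate numbers. The correlation of deviations between equally numbered libraries was 0.547, 0.342 and 0.122 in HFD against ND. In GT against ND it was 0.219, 0.118 and 0.147. In HFD against ND 4 of 6 libraries were closest to their own number, and HFD replicate 3 had 0.626 with ND replicate 2. All 6 of 6 were closest to their own number in GT against ND. The numbers were taken as a possible pairing in these comparisons, which the labels do not state. Alternatives were the pseudocount, filter, scaling, spread over all 12 libraries, replicate block, variance trend and leaving out each library.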

Additional observations from a re-analysis of the deposited data

How the results depend on the processing

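Of 389 refits of single members, 342 kept their direction and side of the threshold, 11 passed it newly, 24 no longer passed it and 12 changed sign. Only results that met the threshold could lose it. For Dnmt3a in HFD against ND 6 of 16 refits no longer passed. For Dnmt1, Uhrf1 and Dnmt3a in TJ against HFD, with 14, 13 and 14 refits, it was 18 in all. In HFD against ND, where 1 member was called, all 12 libraries in the fit gave 2, the replicate block gave 0, leaving out 1 library gave 0 to 3, and median-of-ratios scaling without ND replicate 1, added after the data were seen, gave 3. The replicate block without the libraries numbered 1, also added later, called 582 of 13661 genes. Of the members it called Dnmt3a alone, at 3.41 with a limma adjusted p of 0.0114, with Dnmt1 at 0.0717 and Tet3 at 0.165. In GT against HFD, where none was called, a minimum mean of 5 FPKM gave 2, quantile normalization 1 and leaving out 1 library 0 to 3. In TJ against HFD, where 3 met the threshold, no filter gave 0, all 12 libraries 0 and leaving out 1 library 0 to 3, with 0 without HFD replicate 1, 2 or 3 or TJ replicate 1. In GT against ND and TJ against GT none was called under any alternative.

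Signs changed for Uhrf1, Dnmt3b and Tet2. Uhrf1 in HFD against ND ran from -0.58 (without ND replicate 2) to 1.24 when 1 library was left out, and in GT against ND from -1.56 to 0.26 (without ND replicate 1), with 0.35 under median-of-ratios scaling without ND replicate 1. Dnmt3b in HFD against ND was 0.029 with quantile normalization, and in TJ against HFD it ran from -0.063 (without HFD replicate 3) to 0.19 when 1 library was left out. Tet2 in GT against ND ran from -0.18 (without ND replicate 1) to 0.27, with -0.07 without GT replicate 1, -0.32 with the block and without the libraries numbered 1, and -0.11 with median-of-ratios scaling without ND replicate 1. Tet2 in TJ against GT was 0.014 with quantile normalization and ran from -0.18 to 0.20 (without TJ replicate 2), with 0.11 without GT replicate 1. The cause was not tested.

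Counts over all genes moved more. In HFD against ND 255 genes were called, against 126 with a pseudocount of 0.1, 1131 with all 12 libraries, 0 with the block, 2098 without ND replicate 1 and 0 to 24 without another library. In GT against HFD 464 were called, against 27 with no filter, 1 with all 12 libraries, 5 with the block, 67 without the trend and 4 to 1107 without 1 library. GT against ND went from 0 to 131 with all 12 libraries, 1038 without ND replicate 2 and 401 with median-of-ratios scaling without ND replicate 1. TJ against GT went from 18 to between 4 and 81. TJ against HFD went from 2366 to 73 with no filter, 1 with all 12 libraries, 1198 with the block and 0 to 3412 without 1 library. Higher and lower calls were 233 and 231 in GT against HFD, but 400 and 145 with median-of-ratios scaling and 405 and 162 with quantile normalization, and 949 and 1417 in TJ against HFD, but 1285 and 1085, and 1543 and 1151. Median-of-ratios scaling moved the median log2 difference of all genes from 0.07 to -0.08 in HFD against ND, from -0.12 to -0.0059 in GT against HFD and from -0.14 to -0.01 in TJ against HFD, and under it no member changed sign or its call. In the other 3 comparisons equally numbered libraries had correlations of -0.213 to 0.371, with 2 of 6 libraries closest to their own number in each, so the numbers were not taken to pair them, and the block changed no other call of a member. Of the pathway genes in TJ against HFD, 3 were called with the block, against 12 without it. FPKM carries no counts, and the low levels of Tet1 and Dnmt3b limit what could be seen of them.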
